A study of Mus musculus with 24 samples.

Results

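The genes described here encode the nuclear subunits of the mitochondrial oxidative phosphorylation complexes, measured by RNA sequencing in mouse duodenum, the first segment of the small intestine. Members were chosen by symbol: Nduf genes of series a, b, c, s and v for complex I, Sdha to Sdhd for complex II, Uqcr genes and Cyc1 for complex III, Cox4 to Cox8 genes of series a to c for complex IV and Atp5 genes of series a to o for complex V. This gave 81 of the 25410 symbols in the deposited tables, with 37, 4, 9, 16 and 15 members for complexes I to V. A filter on low values (an RPKM, a read number corrected for gene length and for library size, of 0.5 or more in at least 6 of 24 libraries) was passed by 78 members and by 20006 genes in all. The symbol rule misses some subunits, such as Ndufab1, Cox4i1 and the electron carrier Cycs. It counts Ndufa4, now known as a subunit of complex IV, under complex I, and Cox7a2l, a factor that joins complexes III and IV into supercomplexes, under complex IV. The 13 subunits encoded in mitochondrial DNA were not analysed here.

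All mice were male Cyp27b1 null animals aged 8 weeks, which lack the enzyme that makes the active vitamin D hormone 1,25-dihydroxyvitamin D3 (1,25D), and all diets were deficient in vitamin D. From weaning at 3 weeks the rescue diet supplied 2% calcium, 1.25% phosphorus and 20% lactose, and the normal diet 0.47% calcium and 0.3% phosphorus. The 4 groups were rescue diet with 1,25D (2 ng per g body weight, injected 6 h before collection), rescue diet with vehicle, normal diet with 1,25D and normal diet with vehicle, with 6 libraries each. The labels give 12 mice per diet and 8 injected mice per group, without saying which mouse gave which library. The p-values therefore reflect variation among libraries, which may be technical in part. No mice with an intact Cyp27b1 gene were analysed here.

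Oxidative phosphorylation makes ATP from the electrons of NADH and succinate. Complexes I and II hand them to ubiquinone, complex III passes them to cytochrome c and complex IV to oxygen, and the proton gradient built by complexes I, III and IV drives complex V, the ATP synthase. In the small intestine this ATP pays for the sodium and calcium pumps of absorptive enterocytes. Each complex combines catalytic core subunits with accessory subunits, and several subunits of complex IV have tissue-specific isoforms.

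The injection check held in every library: Cyp24a1, the 1,25D-degrading enzyme, had at least 92.1 RPKM in the 12 libraries after 1,25D, against at most 4.03 RPKM in the 12 vehicle libraries. Cyp27b1, the inactivated gene, reached at most 0.452 RPKM in any library. The absolute depth is unknown. Relative depth, inferred from the step sizes of low RPKM values, ran from 0.617 to 1.565. Normal vehicle replicate 6 stood apart: 14 exocrine pancreas markers summed to 81541 RPKM there, or 14.7% of all RPKM, and to between 31 and 26539 RPKM in the other 23 libraries. Since RPKM are shares of a library, results that rest on normal vehicle replicate 6 are also given without it. Its group stood high as well: the median sum of these markers was 12843 RPKM in normal vehicle and 1547 RPKM in normal 1,25D. On the rescue diet it was 2112 RPKM after 1,25D and 2071 RPKM after vehicle. The rest of the normal vehicle libraries ran from 1905 to 25149 RPKM, so leaving out replicate 6 does not even out the groups. In this whole tissue, fewer cells of a type and less RNA per cell cannot be told apart.

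The members were abundant genes. The median of their mean levels was 51.8 RPKM, against 3.76 RPKM over all 20006 genes tested, and 74 of the 78 lay above that median gene. Means over 24 libraries exceeded 100 RPKM for 24 members and 10 RPKM for 72. Summed over all members, RPKM made up between 0.778% and 1.48% of a library.

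Complex V led. Atp5b, the catalytic beta subunit, averaged 647 ± 87.9 RPKM (SD, n = 24) and Atp5a1, its alpha partner in the F1 head, 638 ± 92.4 RPKM (SD, n = 24). These levels differed by less than their spread. Atp5j, a coupling factor of the stalk, followed at 177 ± 26.1 RPKM (SD, n = 24), and Atp5k closed the complex at 7.43 RPKM. The membrane ring of the synthase is built from a protein that Atp5g1, Atp5g2 and Atp5g3 all encode. Atp5g3 supplied most of that RNA, with a mean of 102 RPKM, while Atp5g1 averaged 19.0 RPKM and Atp5g2 10.8 RPKM.

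All 4 members of complex II, the succinate dehydrogenase, were high. The membrane anchor Sdhd averaged 304 ± 47.4 RPKM, the flavoprotein Sdha 273 ± 39.9 RPKM, the second anchor Sdhc 126 ± 18.4 RPKM and the iron-sulfur subunit Sdhb 88.8 ± 18.7 RPKM (SD, n = 24 each). In complex III the Rieske protein Uqcrfs1 came first at 229 ± 38.1 RPKM, ahead of cytochrome c1, Cyc1, at 162 ± 36.5 RPKM and the hinge protein Uqcrh at 150 ± 20.0 RPKM (SD, n = 24 each). Cyc1 and Uqcrh overlapped within 1 SD.

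Complex I had the most members and a lower middle, with a median of 38.6 RPKM and 6 members over 100 RPKM. Its highest members were the accessory subunits Ndufb9, at 230 ± 43.0 RPKM, and Ndufb7, at 124 ± 26.6 RPKM, and the NADH-binding core subunit Ndufv1, at 118 ± 15.1 RPKM (SD, n = 24 each). Ndufa11 was lowest of those tested, at 3.75 RPKM.

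**Figure D1:**
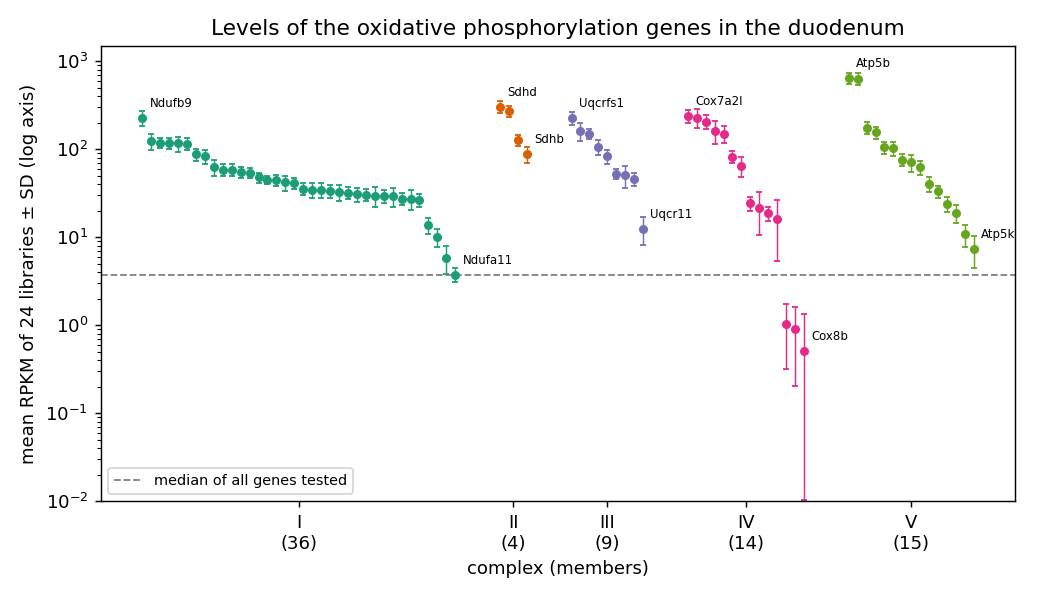
Mean RPKM of 78 members over 24 libraries (log axis), by complex and falling mean, with SD bars. Atp5b and Atp5a1 stand at the top, at 647 and 638 RPKM, and the dashed line is the median gene at 3.76 RPKM. The SD of Cox8b exceeded its mean, so its lower bar was cut off above 0 and does not show the full SD.

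Complex IV ranged widest, from Cox7a2l at 240 RPKM to Cox8b at 0.512 RPKM, and most isoforms known from muscle or testis were low. Cox6c, a subunit with no isoform in the list, averaged 229 RPKM and Cox7b 207 RPKM. The broadly expressed isoforms Cox6a1 and Cox6b1 had mean levels of 65.2 and 151 RPKM. Their muscle partner Cox6a2 was listed at 0 in 14 of 24 libraries and never passed 0.641 RPKM, and their testis partner Cox6b2 averaged 1.03 RPKM. Cox8c, known from testis, was listed at 0 in 20 libraries. Cox7b2, also a testis isoform, averaged 0.900 RPKM, and Ndufa4l2, a hypoxia-responsive relative of Ndufa4, 0.232 RPKM against 29.6 RPKM for Ndufa4. Cox6a2, Cox8c and Ndufa4l2 were the 3 members that did not pass the filter.

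The exception was Cox7a1, the isoform of subunit VIIa known from heart and skeletal muscle. It averaged 21.7 ± 11.2 RPKM, close to the 18.9 ± 3.38 RPKM of its broadly expressed partner Cox7a2 (SD, n = 24 each). Cox7a1 stood at between 34.7% and 265% of Cox7a2, with a median of 106%. Striated muscle markers were low beside it: 11 genes summed to between 1 and 8 RPKM per library, and 5 of them stayed under 0.5 RPKM in all libraries (Myh4, Tnnt3, Mb, Actn3 and Myh6). Brown fat markers (7 genes) summed to between 23 and 66 RPKM. Smooth muscle markers (10 genes) summed to between 119 and 723 RPKM.

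Cox8a, the common isoform of subunit VIII, had the widest spread within groups of the 78, with an SD of 1.02 on the log2(RPKM + 0.5) scale. The median within-group SD of the members was 0.26, and that of all genes tested 0.35. Cox8a ran from 2.63 RPKM in rescue 1,25D replicate 3 to 45.7 RPKM in rescue 1,25D replicate 4, both in the same group, and its log2 fold change after 1,25D was -0.79 on the rescue diet with a 95% interval from -1.89 to 0.31.

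**Figure D2:**
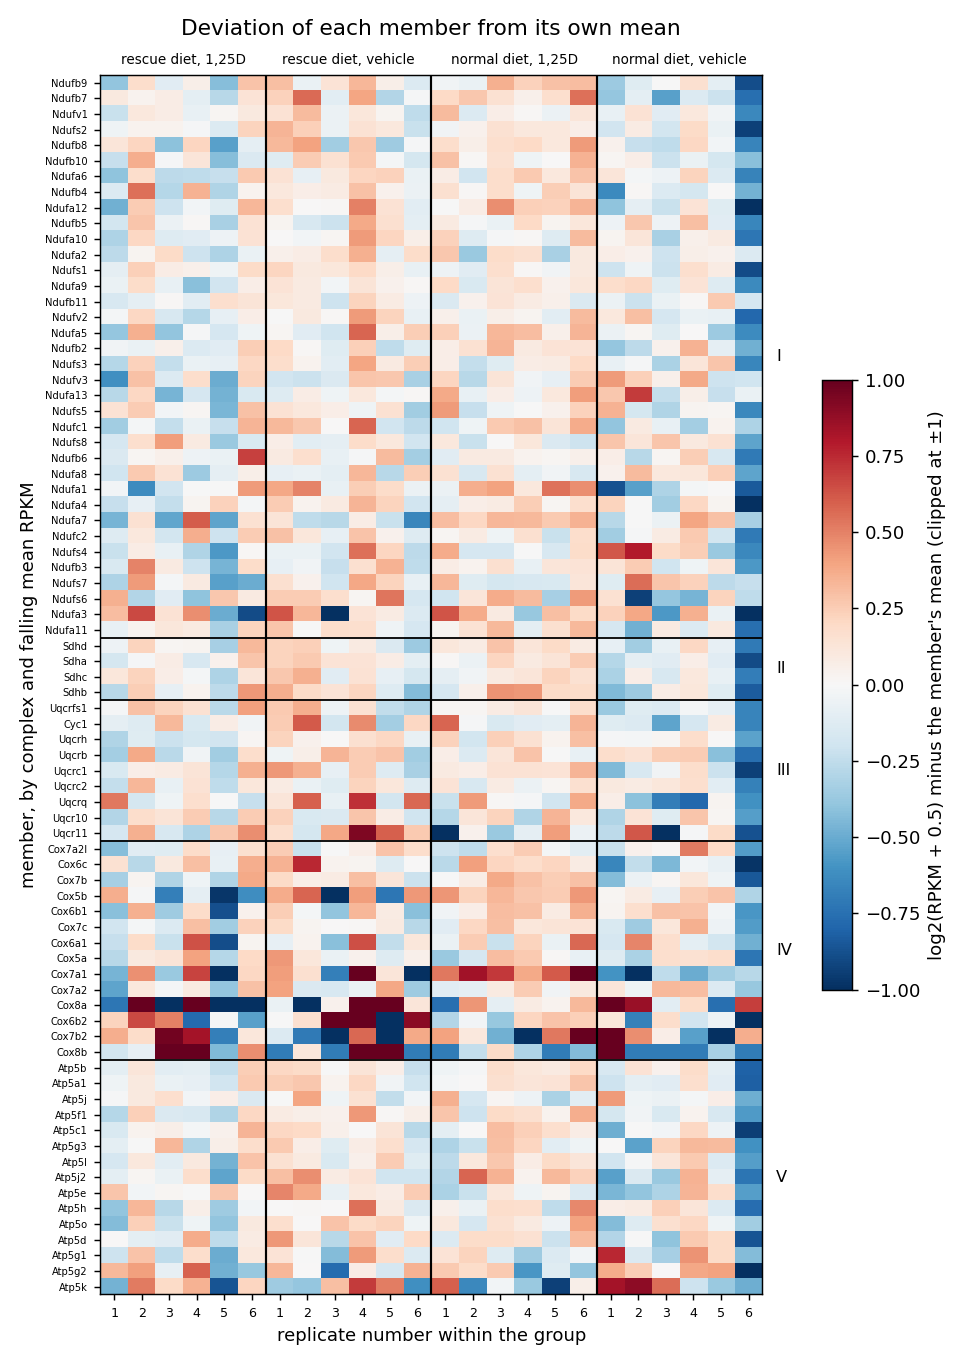
Deviation of each member from its own mean over 24 libraries, on the log2(RPKM + 0.5) scale and clipped at ±1, with members down the page by complex and libraries across by group. The column of normal vehicle replicate 6 is blue for nearly all members: 54 of 78 had their lowest value there.

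On the normal diet, 1,25D raised 3 members and lowered none. Cox7a1 rose 2.53-fold, and the complex I accessory subunits Ndufa1 and Ndufb7 rose 1.66-fold and 1.5-fold. With limma on log2(RPKM + 0.5), 3 of 78 members (3.85%) passed a Benjamini-Hochberg adjusted p of 0.05, against 1.84% of all 20006 genes tested in either direction and 1.78% in the upward direction. A count of 3 is too small to set the members apart from that background. None of the 3 is a catalytic core subunit, but the share of core subunits among the members was not counted.

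Cox7a1 was between 25.0 and 52.9 RPKM after 1,25D on the normal diet (median 30.5), against between 6.25 and 16.0 RPKM after vehicle (median 14.2). Every 1,25D library lay above every vehicle library. The means were 33.5 ± 10.03 and 13.1 ± 3.63 RPKM (SD, n = 6 each), and the log2 fold change was 1.34 with an SE of 0.33 and a limma adjusted p of 0.0316. Its 95% interval ran from 0.66 to 2.02. The lowest vehicle value, 6.25 RPKM in replicate 2, and the highest 1,25D value, 52.9 RPKM in replicate 6, each stood off from the rest of its group.

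Ndufa1, an X-linked subunit that complex I needs for its assembly, was between 27.4 and 42.0 RPKM after 1,25D (median 37.5), against between 15.4 and 28.7 RPKM after vehicle (median 21.2). The groups overlapped slightly, since the lowest 1,25D library was under the highest vehicle library. The means were 35.8 ± 5.55 and 21.7 ± 5.87 RPKM (SD, n = 6 each), with a log2 fold change of 0.74, an SE of 0.17 and a limma adjusted p of 0.0206.

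Ndufb7, which lies on the intermembrane side of complex I, was between 125 and 178 RPKM after 1,25D (median 138), against between 71.7 and 113 RPKM after vehicle (median 98.5). No library of either group overlapped the other. The means were 143 ± 18.2 and 95.9 ± 16.4 RPKM (SD, n = 6 each), with a log2 fold change of 0.59, an SE of 0.14 and a limma adjusted p of 0.0252.

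These calls were close to the threshold. Leaving out normal vehicle replicate 6 kept all 3. The call of Cox7a1 was lost without normal vehicle replicate 1 or 2 (adjusted p = 0.0668 and 0.0921 in limma) or without normal 1,25D replicate 2, 3, 5 or 6 (0.0626, 0.0671, 0.0545 and 0.0943). That of Ndufa1 was lost without normal vehicle replicate 1 or 2 (0.0684 and 0.0501) or normal 1,25D replicate 3, 5 or 6 (0.0566, 0.0578 and 0.0546). That of Ndufb7 was lost without normal vehicle replicate 1 or 3 (0.0582 and 0.0527) or normal 1,25D replicate 2, 3 or 6 (0.0534, 0.0518 and 0.0805). The log2 fold changes stayed between 1.15 and 1.41 for Cox7a1, 0.65 and 0.82 for Ndufa1 and 0.51 and 0.64 for Ndufb7. Rescaling the libraries without the pancreas markers, an alternative added after the data were seen, left only Ndufa1 called (adjusted p = 0.0351), with Cox7a1 at 0.056 and Ndufb7 at 0.0801. Quantile normalization lost all 3 calls (0.0996 for Cox7a1, 0.071 for Ndufa1 and 0.0905 for Ndufb7). Median-of-ratios scaling lost Cox7a1 and Ndufa1 (0.0859 and 0.0829) and kept Ndufb7 (0.0442). With the replicate number as a block Cox7a1 was lost (0.0519).

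**Figure D3:**
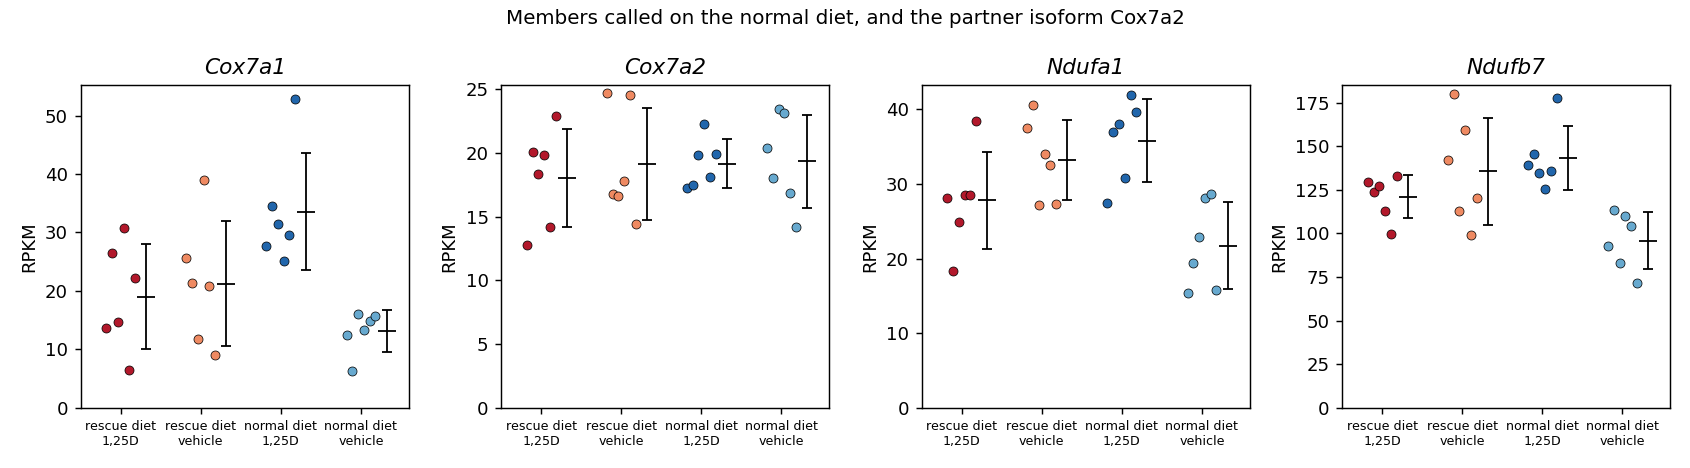
RPKM of Cox7a1, Cox7a2, Ndufa1 and Ndufb7 in each of 24 libraries (points), with group mean ± SD (bars, n = 6). On the normal diet Cox7a1 and Ndufb7 do not overlap between 1,25D and vehicle; on the rescue diet all 4 genes overlap, and the group means of Cox7a2 lie between 18 and 19.3 RPKM.

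The windows around the RefSeq start sites of the 3 genes are shown because the genes moved in the same comparison. Each window holds 250 bases before and 50 after the start, on build GRCm38.p6 and 5′ to 3′ on the gene's strand: chr7:30183921-30184220 on the plus strand for Cox7a1, chrX:37191189-37191488 on the minus strand for Ndufa1 and chr8:83566508-83566807 on the plus strand for Ndufb7. Capitals mark matches to the motifs searched, and start sites can differ between annotations.
Cox7a1: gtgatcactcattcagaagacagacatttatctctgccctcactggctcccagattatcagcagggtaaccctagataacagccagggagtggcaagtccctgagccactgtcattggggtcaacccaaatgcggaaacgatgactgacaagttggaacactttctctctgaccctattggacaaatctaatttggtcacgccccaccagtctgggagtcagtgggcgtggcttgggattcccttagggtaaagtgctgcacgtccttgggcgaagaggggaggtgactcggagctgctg
Ndufa1: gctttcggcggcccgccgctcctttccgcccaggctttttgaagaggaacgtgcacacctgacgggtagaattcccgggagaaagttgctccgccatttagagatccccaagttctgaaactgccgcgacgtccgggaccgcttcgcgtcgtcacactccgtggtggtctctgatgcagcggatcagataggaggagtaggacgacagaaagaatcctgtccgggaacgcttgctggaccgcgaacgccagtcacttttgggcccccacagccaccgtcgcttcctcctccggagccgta
Ndufb7: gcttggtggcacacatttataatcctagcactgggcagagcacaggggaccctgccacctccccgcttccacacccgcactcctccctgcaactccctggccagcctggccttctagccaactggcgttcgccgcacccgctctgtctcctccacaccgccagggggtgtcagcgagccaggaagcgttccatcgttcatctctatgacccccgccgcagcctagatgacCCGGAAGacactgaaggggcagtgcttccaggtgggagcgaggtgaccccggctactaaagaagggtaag
GC content was 53.0% for Cox7a1, 60.7% for Ndufa1 and 62.7% for Ndufb7. The 1 match among them was the ETS core CCGGAAG at base 231 of the Ndufb7 window.

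Over all members, 67 of 81 matched a gene with such a window, giving 72 windows, which were set beside all 32851 windows of the table with both strands searched. The NRF1 core GCGCANGCG, named for nuclear respiratory factor 1, was in 29.2% of the members' windows and 6.25% of all windows. The ETS core CCGGAAG, read by GABPA among others, was in 22.2% and 8.86%. The YY1 motif AAGATGGC was in 13.9% and 2.75%, and the estrogen-related receptor element TNAAGGTCA in 4.17% and 1.28%. A direct repeat of the vitamin D receptor type with a spacer of 3 bases (DR3) was in 0 of 72 windows and in 13 of all 32851 windows (0.0396%). At that rate a match among 72 windows would be rare, so the 0 does not set the members apart. Members' windows had a median GC content of 57.3%, against 52.7% over all windows, and windows of higher GC hold more GC-rich motifs by composition alone.

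Beyond the 3 called genes, the members leaned upward on the normal diet. The log2 fold change was above 0 for 65 of 78 members (83.3%), with a median of 0.19, against 58.8% and a median of 0.05 over all genes tested. At an unadjusted p under 0.05, 25 members were higher and 0 lower, or 32.1% of members beside 9.74% of all genes in the upward direction. Members moved together by library, so these counts are not independent observations. All genes tested were also lower in level and wider in spread (median within-group SD 0.35, against 0.26 for members), so the shares are not strictly comparable. By complex the median log2 fold change was 0.20 for I, 0.33 for II, 0.19 for III, 0.16 for IV and 0.17 for V, with 31 of 36, 4 of 4, 9 of 9, 10 of 14 and 11 of 15 members above 0. Other settings moved the members and all genes together. Without normal vehicle replicate 6 the median was 0.08 for members and -0.02 for all genes. After rescaling without pancreas markers these were 0.13 and 0.00, and with median-of-ratios scaling 0.11 and -0.01. With quantile normalization they lay closer, at 0.02 and -0.02, and 45 of 78 members were above 0.

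The remaining members did not pass the test. Cox6c was between 184 and 296 RPKM after 1,25D on the normal diet (median 255), against between 113 and 219 RPKM after vehicle (median 175), with a log2 fold change of 0.54, an SE of 0.17 and a limma adjusted p of 0.115. Sdhb was between 77.0 and 119 RPKM, against between 48.6 and 94.0 RPKM, with a log2 fold change of 0.45 and a limma adjusted p of 0.206. Both pairs of groups overlapped. Uqcrfs1 did not overlap, with 225 to 255 RPKM after 1,25D and 143 to 223 RPKM after vehicle, but its limma adjusted p was 0.37 for a log2 fold change of 0.30. Non-overlapping members were 3 of 78 (3.85%, Cox7a1, Ndufb7 and Uqcrfs1), and 2.22% of all genes did not overlap in this comparison. The catalytic core of the ATP synthase did not pass the test either: Atp5b was 681 ± 45.5 RPKM after 1,25D and 605 ± 132 RPKM after vehicle (SD, n = 6 each), a log2 fold change of 0.20 with a 95% interval from -0.11 to 0.52.

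On the rescue diet no member was called after 1,25D, in a comparison that called 0.145% of all genes tested. At an unadjusted p under 0.05 there were 0 higher and 1 lower, Uqcrh (1.83% of all genes were lower at that level), and the smallest limma adjusted p was 0.878. Log2 fold changes were below 0 for 66 of 78 members, beside 7831 of 20006 genes tested, with a median of -0.09, against 0.06 over all genes. Rescaling without pancreas markers, which moved all genes as well, put the members' median at -0.01, with 34 above 0 and 44 below, and that of all genes at 0.13. Uqcrh was between 121 and 150 RPKM after 1,25D and between 141 and 174 RPKM after vehicle, and its log2 fold change was -0.26 with a limma adjusted p of 0.878. The intervals were tight for most members: for 65 of 78 the 95% interval lay within a 1.5-fold change either way, and for 74 within a 2-fold change.

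The 3 genes raised on the normal diet did not pass the test on the rescue diet. Cox7a1 was between 6.48 and 30.8 RPKM after 1,25D (median 18.4), against between 9.06 and 39.0 RPKM after vehicle (median 21.1). Ndufa1 was between 18.3 and 38.5 RPKM, against between 27.2 and 40.6 RPKM, and Ndufb7 between 99.97 and 133 RPKM, against between 98.9 and 180 RPKM. All 3 overlapped widely. Their log2 fold changes were -0.16, -0.27 and -0.14, with 95% intervals from -0.84 to 0.52, from -0.62 to 0.08 and from -0.43 to 0.15.

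**Figure D4:**
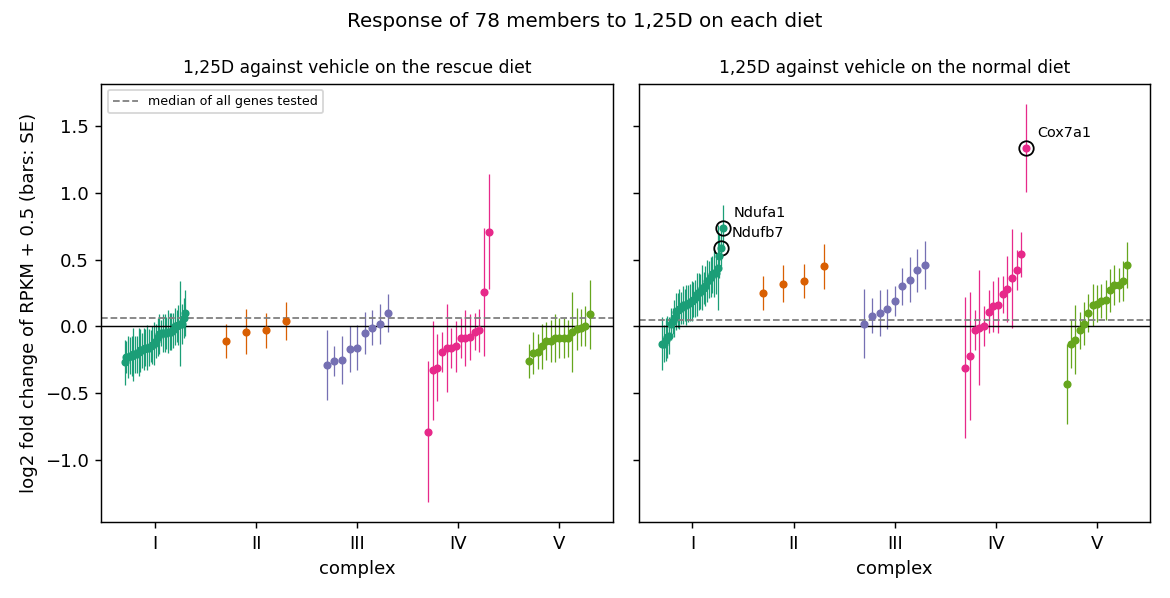
Log2 fold change of RPKM + 0.5 after 1,25D for 78 members by complex, on the rescue diet (left) and the normal diet (right), with SE bars. Rings mark the 3 called members on the normal diet, and the dashed lines are the medians of all genes tested, 0.06 and 0.05.

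The difference between both responses was tested directly, as the effect of 1,25D on the rescue diet minus that on the normal diet. No member was called, and 0.005% of all genes were. The difference was below 0 for 69 of 78 members, beside 9665 of 20006 genes tested, with a median of -0.30, against 0.01 over all genes. At an unadjusted p under 0.05 there were 23 members, all below 0. That is 29.5% of members beside 5.59% of all genes in that direction. Ndufa1 had the smallest p, with a difference of -1.0 on the log2 scale, an SE of 0.24 and a limma adjusted p of 0.187. Ndufb7 followed at -0.72 (SE 0.20, adjusted p = 0.261 in limma) and Cox7a1 at -1.50 (SE 0.47, adjusted p = 0.32). Response signs were opposite, above 0 on the normal and below 0 on the rescue diet, for 57 of 78 members. The share of all genes with this pattern was not computed. Members also moved together by library, so these signs are not independent observations. Without normal vehicle replicate 6 the median difference was -0.18 for members and 0.10 for all genes, and after rescaling without pancreas markers -0.16 and 0.13. With quantile normalization it was -0.12 for members and 0.01 for all genes. Some other gene lists differed alike, so the shift was not particular to the members. The median was -0.29 over 19 genes of the TCA cycle and pyruvate dehydrogenase (17 below 0) and -0.34 over 16 glycolysis genes (15 below 0). It was -0.28 over 14 genes of mitochondrial protection and uncoupling (13 below 0). Over 27 assembly factors it was -0.06 (20 below 0), and over 14 regulators of mitochondrial biogenesis -0.01 (7 below 0). Enterocyte markers differed in the same direction: all 12 were below 0, with a median of -1.70, none was called and 11 had an unadjusted p under 0.05. All 14 exocrine pancreas markers were above 0, with a median of 3.24 and none called. The part of either marker list in the members' difference was not tested. For 15 of 78 members the 95% interval of the difference lay within 1.5-fold either way.

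Diet by itself gave no called member. Under vehicle, rescue against normal, 0 of 78 members and 0% of all genes were called. At an unadjusted p under 0.05, 14 members were higher (17.9%, beside 6.58% of all genes) and 0 lower. The median was 0.19, against 0.10 over all genes, and 64 of 78 members (82.1%) lay above 0, beside 68.9% of all genes. Uqcrq, an accessory subunit of complex III, had the smallest p: it was between 43.2 and 82.2 RPKM on the rescue diet, against between 28.3 and 51.7 RPKM on the normal diet, with a log2 fold change of 0.69 and a limma adjusted p of 0.475. The groups overlapped. This comparison shares the normal vehicle libraries with the 1,25D comparison on the normal diet. Without normal vehicle replicate 6 the median was 0.08 for members and 0.02 for all genes, and quantile normalization gave 0.03 and 0.00, with 42 of 78 members above 0. After rescaling without pancreas markers the median was 0.06 for members, with 52 of 78 above 0, and -0.00 for all genes. All 12 enterocyte markers were above 0, with a median of 0.62 and none called. All 14 exocrine pancreas markers were below 0, with a median of -3.23, and 11 had an unadjusted p under 0.05 with none called. All 8 goblet and Paneth cell markers were above 0, with a median of 0.33. The part of these lists in the members' lean was not tested.

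After 1,25D, rescue against normal, again 0 members were called, beside 0.01% of all genes. At an unadjusted p under 0.05, 0 members were higher and 7 lower (8.97%, beside 3.2% of all genes). The median was -0.11, against 0.12 over all genes, and 62 of 78 lay below 0, beside 5861 of 20006 genes tested. Cox7a1 had the smallest p, at between 6.48 and 30.8 RPKM on the rescue diet, against between 25.0 and 52.9 RPKM on the normal diet, with a log2 fold change of -0.92 and a limma adjusted p of 0.48. With library weights 3 members passed as lower, Ndufa1 at -0.54, Cox7b at -0.36 and Uqcrh at -0.29 (limma adjusted p = 0.0255, 0.0404 and 0.0376). These are 3.85% of members, beside 2.36% of all genes called as lower with library weights. All 12 enterocyte markers were below 0 in this diet comparison without weights, with a median of -1.0, and 8 of them had an unadjusted p under 0.05 with none called. Quantile normalization moved the median of all genes to 0.00 in the vehicle and 0.01 in the 1,25D diet comparison. In the 1,25D diet comparison the members' median stayed at -0.11 with it, and 63 of 78 lay below 0. Median-of-ratios scaling gave -0.20 for members and 0.04 for all genes there. Averaged over both diets, 1,25D called 0 of 78 members beside 1.28% of all genes, with 3 higher (7.45% of all genes) and 0 lower at an unadjusted p under 0.05. Averaged over both injections, diet called 0 of 78 beside 0%, with 4 higher (8.93% of all genes) and 2 lower (0.57% of all genes).

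Summed RPKM per complex overlapped in every comparison. Complex I summed to 1643 to 2201 RPKM with 1,25D and 1818 to 2373 RPKM with vehicle on the rescue diet, and to 1915 to 2307 RPKM with 1,25D and 1248 to 2091 RPKM with vehicle on the normal diet. Complex II, the succinate dehydrogenase, summed to 689 to 956 RPKM with 1,25D and 659 to 936 RPKM with vehicle on the rescue diet, and to 787 to 930 RPKM with 1,25D and 454 to 856 RPKM with vehicle on the normal diet. The lowest sum of each of the 5 complexes was that of normal vehicle replicate 6. Next to it, rescue 1,25D replicate 5 had the lowest median level of the members (41.8 RPKM), and rescue vehicle replicate 4 the highest (60.7 RPKM, with 75 of 78 members above their own mean).

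Isoform ratios asked whether partners moved apart. Of 8 pairs listed, 6 had both partners past the filter, which made 24 tests, and none reached a Benjamini-Hochberg adjusted p of 0.05. On the normal diet the log2 ratio of Cox7a1 to Cox7a2 was 0.75 ± 0.40 after 1,25D and -0.58 ± 0.55 after vehicle (SD, n = 6 each). The groups differed by 1.33 with an exact permutation p of 0.00216, the smallest that all splits of 12 libraries into 6 and 6 can give, and an adjusted p of 0.0519. Over 24 tests a lone pair at that smallest p could not pass 0.05. The lack of a passing test therefore does not show that no ratio shifted. On the rescue diet the ratio was -0.05 ± 0.60 after 1,25D and 0.02 ± 0.64 after vehicle (SD, n = 6 each; exact permutation p = 0.842). Cox7a2 itself was 19.1 ± 1.92 RPKM after 1,25D and 19.3 ± 3.65 RPKM after vehicle on the normal diet (SD, n = 6 each). For the 3 genes of the synthase ring no shift passed the test: differences of the Atp5g1, Atp5g2 and Atp5g3 ratios between groups were between -0.19 and 0.11, with exact permutation p-values of at least 0.381.

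Other mitochondrial genes were set beside the members. Over 19 genes of the TCA cycle and pyruvate dehydrogenase, the median log2 fold change after 1,25D on the normal diet was 0.23, with 18 above 0. At an unadjusted p under 0.05 in limma, 9 were higher and 0 lower. Of the 19 genes, 1 was called as raised and 0 as lowered, beside 1.78% of all genes called as raised. That gene was Ogdh, a subunit of the alpha-ketoglutarate dehydrogenase, at between 91.2 and 108 RPKM, against between 51.4 and 71.7 RPKM (limma adjusted p = 0.00304). Of 14 tested genes of mitochondrial protection and uncoupling, Ucp2, a mitochondrial carrier of the uncoupling protein family, rose, at between 53.8 and 67.7 RPKM, against between 31.5 and 52.5 RPKM (limma adjusted p = 0.0392). Neither Ogdh nor Ucp2 overlapped between groups. The median over those 14 genes was 0.32, with 13 above 0. At an unadjusted p under 0.05 in limma, 9 of them were higher and 0 lower. The upward lean was therefore not particular to the members. Of 7 tested subunits that the symbol rule leaves out, Ndufab1, the acyl carrier protein of complex I, rose, at between 9.97 and 17.5 RPKM, against between 5.59 and 10.1 RPKM (limma adjusted p = 0.0329). Whether the calls of Ogdh, Ucp2 and Ndufab1 hold under the other settings was not examined. None of 27 assembly factors (median 0.15), 14 regulators of mitochondrial biogenesis (median 0.07) and 16 glycolysis genes (median 0.22) was called, with 4, 3 and 4 of them higher and 0 lower at an unadjusted p under 0.05 in limma. Over all genes, 9.74% were higher at that level. On the rescue diet none of these lists held a called gene, with medians from -0.14 for glycolysis to 0.09 for assembly factors.

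Some cell type markers moved in the same comparison. The 12 enterocyte markers were all above 0 after 1,25D on the normal diet, with a median log2 fold change of 1.23, and 3 were called (Alpi, Fabp2 and Lct). Summed, they ran from 6193 to 12298 RPKM after 1,25D and from 2305 to 5672 RPKM after vehicle, so the groups did not overlap. On the rescue diet the sums ran from 1623 to 8619 RPKM after 1,25D and from 2153 to 11116 RPKM after vehicle. Their median log2 fold change there was -0.52, with 11 of 12 below 0. Exocrine pancreas markers (14 genes) had a median log2 fold change of -3.57 on the normal diet, smooth muscle markers (10 genes) of -0.42 and crypt stem cell markers (9 genes) of -0.43. None of these 3 lists held a called gene, though all 14 pancreas markers were lower at an unadjusted p under 0.05 in limma. Goblet and Paneth cell markers (8 genes, median -0.02) and immune cell markers (10 genes, median 0.17) moved less, with none called. The part of any of these marker lists, enterocyte markers included, in the members' changes was not tested.

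**Figure D5:**
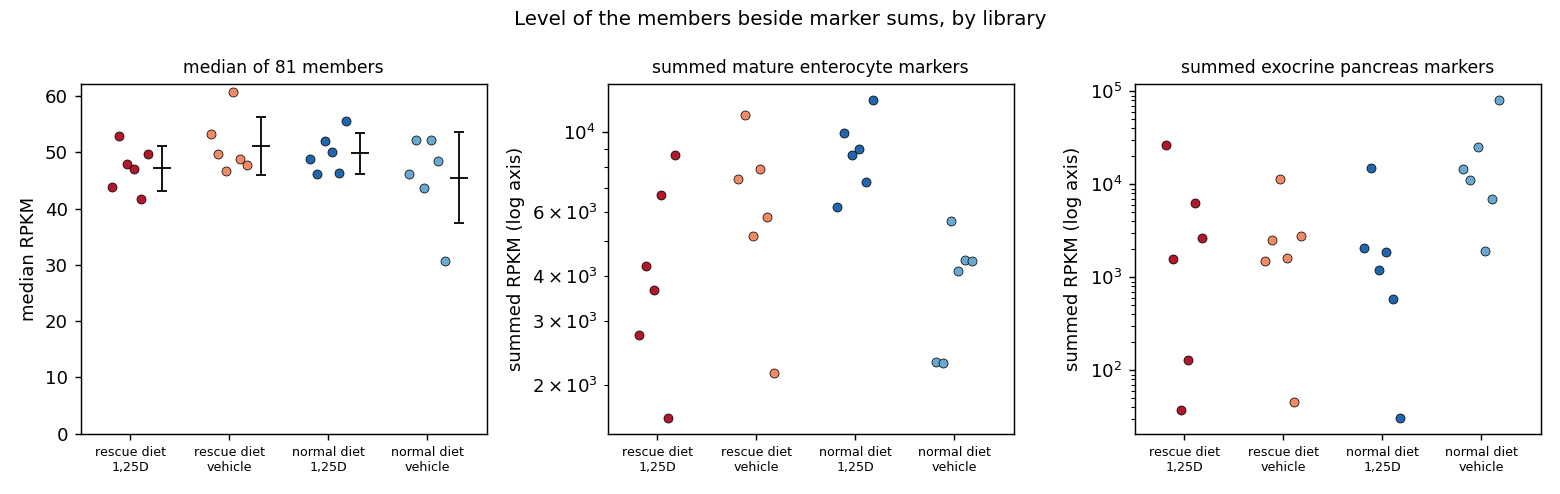
Median RPKM of the 81 members (left, with group mean ± SD), summed RPKM of 12 enterocyte markers (middle, log axis) and of 14 exocrine pancreas markers (right, log axis), in each of 24 libraries by group. On the normal diet the enterocyte sums do not overlap between 1,25D and vehicle, while the members' medians do; normal vehicle replicate 6 is lowest on the left and highest on the right.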

How the data were processed

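RNA was sequenced from the duodenum of 24 libraries after removal of ribosomal RNA, with a kit that keeps strand, per the labels' protocols. The submitters' processing notes name TopHat and mm9. Which program counted reads per gene, and on what annotation, is not given in the sources used here. Per the file headers the authors deposited RPKM values, 1 table of 30795 entries per library; these were used as deposited, with entries of the same symbol summed (90 entries for the 81 members). Many of these genes have near-identical processed pseudogenes, so how reads were split is uncertain. Read totals are unknown.

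Groups come from the labels. limma 3.58.1 in R 4.3.3 was run on log2(RPKM + 0.5), with an intensity trend, a mean for each group and 20 degrees of freedom left, for 20006 genes; tests were two-sided and genes were called at 0.05 after Benjamini-Hochberg adjustment over all of them. Fold changes on this scale understate the change of low genes. Isoform ratios had exact permutation tests of 6 against 6 libraries. Relative depth rests on 1785 rarely detected entries, and 65.6% of library pairs matched within 0.05 on the log2 scale. The fit was tested on simulated data. Python 3.11.15, numpy 2.4.6, pandas 2.3.3 and matplotlib 3.10.9 read the tables and drew the figures. Promoter windows are RefSeq sequences of GRCm38.p6, matched by symbol or synonym; no coordinates were converted from mm9. The NRF1 core was shortened after shares for a longer form had been seen.

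Members, gene lists and tests were chosen with earlier results of these data known. Named members follow a rule: called members, the 3 highest of each complex, the smallest p per complex and comparison, isoform pairs and members under the filter; Ndufa11 and Atp5k were added as lowest of their complex, and the text names only part of those the rule takes. Alternatives covered the pseudocount, the filter, library weights, scaling, the replicate number, the libraries in the fit and leaving out each library; rescaling without pancreas markers was added after seeing the data.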

Additional observations from a re-analysis of the deposited data

Results flagged for a closer look

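Values that stood off from the other 5 libraries of their group, by Dixon's gap test, were found in 12 of 184 groups. The 184 include groups listed at 0 throughout, such as Cox8c in normal vehicle, which could not be flagged. Chance flags about 1 in 20 groups of normally distributed values. That rate does not hold for members near the detection floor, where a lone value above 0 is always flagged. Normal vehicle replicate 6 was low for Uqcrh (102 RPKM, next lowest 146), Atp5g2 (4.12 RPKM, next 10.4) and the summed RPKM of complex III (551, next 799). Normal vehicle replicate 2 was low for Cox7a1 (6.25 RPKM, next 12.4), and normal 1,25D replicate 6 was high for Cox7a1 (52.9 RPKM, next 34.5) and Uqcrc1 (103 RPKM, next 90.5). Rescue vehicle replicate 4 was high for Atp5f1, a stalk subunit of the ATP synthase (208 RPKM, next 164). Normal vehicle replicate 1 was high for 3 members near the detection floor, Cox8b (3.37 RPKM, next 0.15), Ndufa4l2 (0.875 RPKM, next 0.155) and Cox6a2 (0.522 RPKM, next 0.166). Cox8c had 0.361 RPKM in normal 1,25D replicate 2 and 0.144 RPKM in rescue vehicle replicate 2, and was listed at 0 in the other libraries of those groups.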

How the results depend on the processing

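The count of members called for 1,25D on the normal diet was 3 and stayed at 3 with pseudocounts of 0.1 or 1, both other filters, library weights and only the groups compared. It was 0 with quantile normalization, 1 with median-of-ratios scaling (Ndufb7) and 1 after rescaling without pancreas markers (Ndufa1). Leaving out each library gave between 0 and 3. For rescue against normal diet after 1,25D, library weights gave 3 (2.36% of all genes were called as lower there) and every other setting 0. In the other comparisons and the isoform ratios the count was 0 under every setting run. For a lone isoform pair this was fixed in advance, since the smallest exact permutation p became 0.0519 after adjustment. For 1,25D over both diets the members' median log2 fold change was 0.05, beside 0.07 for all genes, and quantile normalization put both lower, at -0.02 and -0.01. For diet over both injections it was 0.04, beside 0.10 for all genes, and median-of-ratios scaling put both lower, at -0.07 and 0.01. No value that was called changed direction.

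Replicate numbers did not pair the libraries: of 36 same-number pairs 13 correlated above 0.1, with a range from -0.44 to 0.48 and a median of 0.00, and 4 of 24 libraries correlated best with their own number. With the replicate number as a block, 2 members were called for 1,25D on the normal diet (Ndufa1 and Ndufb7), and 0 in the other comparisons. Unknown read totals limit what can be said of members under about 1 RPKM.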
